A study of Mus musculus and Homo sapiens with 12 samples.

Results

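The SIRT7 peaks described here lie in the 3 Mb beside the centromere of each mouse autosome. They were the peaks of the mouse embryonic fibroblast (MEF) list whose midpoint fell below 6 Mb on chromosomes 1 to 19 of mouse build mm9. The first 3 Mb of each mm9 autosome are unsequenced and stand for the centromere and its satellite DNA, so the zone runs from 3 Mb to 6 Mb. It held 1878 of the 72622 peaks of the list, which is 2.59% of them, and the other 63544 autosomal peaks are the rest of the autosomes. The assay was ChIP-seq, in which DNA crosslinked to a protein, here SIRT7, is pulled down with an antibody and sequenced. The MEFs were wild type, of strain 129s2, derived from embryos at day 14.5 and kept for 2 to 3 passages. The series held 12 samples in 7 groups. Of the 2 wild-type MEF SIRT7 samples, 1 carried the single peak list used here, and the other samples, from SirT7-/- MEFs, K562 cells and inputs among them, were not analysed here.

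Mouse autosomes carry the centromere at one end. Beside it lies a long array of major satellite repeats, packed into constitutive heterochromatin, and the arrays of several chromosomes gather in the nucleus in bodies called chromocentres. SIRT7 is a sirtuin of the nucleus that is enriched in nucleoli and removes acyl groups from proteins, among them acetylated lysine 18 of histone H3. The study's title links it to L1 elements, the long interspersed repeats that copy themselves through RNA, and to the nuclear lamina. The satellite arrays themselves are not in the assembly, so the peaks described here lie in the first assembled sequence next to them.

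With 1 list there is no replicate error, so no test was made and no p-value is given. Brackets give 95% intervals for counting error only, which take peaks as independent, although neighbouring peaks share a library and a chromosome. How many reads were sequenced is unknown from the list, and all values below depend on it. Stretches of unknown sequence inside the zone and the ease of mapping reads there were not separated out, and their part in any value below was not tested. Peaks come from a population of cells, so binding in few cells and weak binding in many cells cannot be told apart.

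The zone was denser in SIRT7 peaks than the rest of the autosomes, and its peaks lay closer together and had lower scores. It held 32.9 peaks per Mb (31.5 to 34.5) over 57 Mb, against 26.95 per Mb (26.7 to 27.2) over 2358 Mb in the rest, a ratio of 1.22 (1.17 to 1.28). Peaks covered 5.82% of the zone and 5.00% of the rest, a ratio of 1.16. The median width did not set the zone apart, at 980.5 bp (923 to 1024) in the zone and 978 bp (970 to 987) in the rest. The middle 50% of widths ran from 649 to 2049 bp in the zone and from 658 to 2151 bp in the rest. Zone peaks were 266 to 7864 bp wide.

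The excess was not shared by every autosome. The density ratio of zone to rest was above 1 on 13 of the 19 autosomes, with an interval wholly above 1 on 11, and below 1 on 6, with an interval wholly below 1 on chromosomes 12, 14 and 19. These counts were not made for later stretches of the same length, so they do not set the zone apart from them. Such stretches themselves varied, with a median of 80 peaks and quartiles of 53 and 107. The densest zones were those of chromosome 4, with 149 peaks or 49.7 per Mb (42.0 to 58.3) against 28.1 per Mb in its rest, chromosome 8, with 147 peaks or 49.0 per Mb (41.4 to 57.6) against 25.004 per Mb, and chromosome 15, with 131 peaks or 43.7 per Mb (36.5 to 51.8) against 27.0 per Mb. The highest ratio, 1.96 (1.65 to 2.31), was that of chromosome 8, and chromosomes 9 and 4 followed with 1.82 (1.52 to 2.18) and 1.77 (1.49 to 2.08).

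The sparsest zone was that of chromosome 14. Its 17 peaks gave 5.67 per Mb (3.30 to 9.07), against 28.1 per Mb (27.1 to 29.0) in the rest of that chromosome, a ratio of 0.202 (0.117 to 0.324). Chromosome 19 had 41 zone peaks, or 13.7 per Mb (9.81 to 18.5) against 23.0 per Mb, and chromosome 11 had 50, or 16.7 per Mb (12.4 to 22.0) against 19.1 per Mb. The interval of the chromosome 11 ratio, 0.647 to 1.16, held 1. The 11 autosomes with more than 100 zone peaks held 74.1% of the zone's peaks. Without chromosome 14 the pooled density ratio was 1.28 (1.22 to 1.34).

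**Figure D1:**
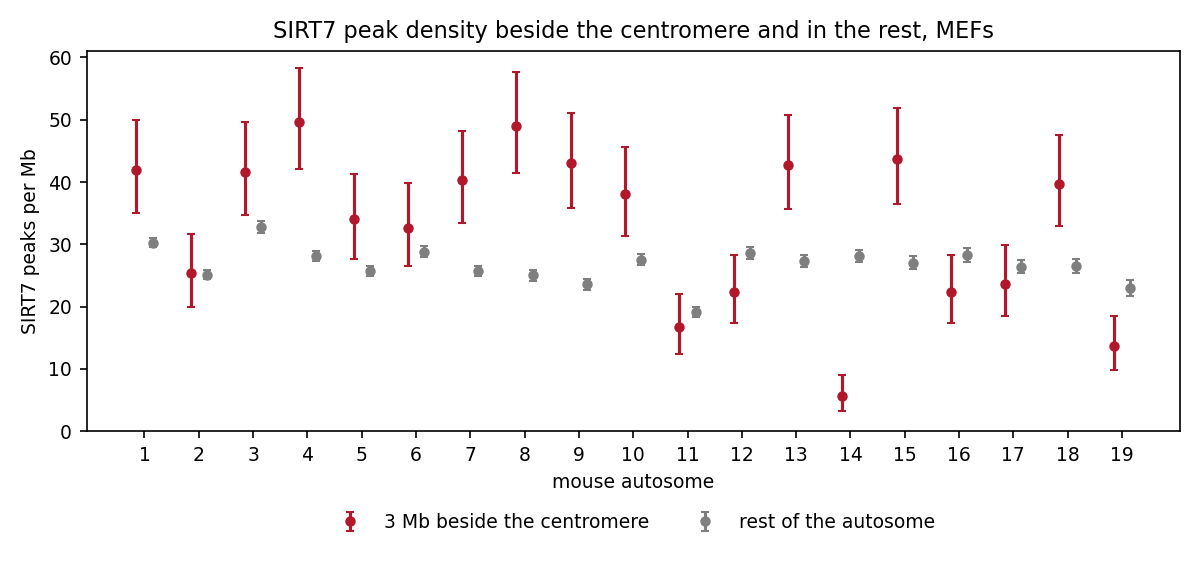
SIRT7 peaks per Mb (y axis) on each mouse autosome (x axis) in the 3 Mb beside the centromere (red) and in the rest of the autosome (grey), with 95% Poisson intervals for counting error as bars. The red points spread from 5.67 to 49.7 per Mb and the grey points from 19.1 to 32.8 per Mb, and the red point of chromosome 14 is the lowest.

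The autosomes differed more in the zone than in the rest. Zone density averaged 32.9 ± 12.7 per Mb (SD, n = 19 autosomes) and ran from 5.67 to 49.7, whereas the density of the rest averaged 26.7 ± 2.93 per Mb (SD, n = 19 autosomes) and ran from 19.1 to 32.8. Part of this follows from the short length of the zone. In the 18 later steps of 3 Mb, up to 57 Mb after the first sequenced base, the SD over autosomes ran from 7.21 to 12.5 per Mb, so the zone had the highest of the 19 steps, by a small margin. The order of autosomes was not the same in zone and rest. Spearman's rho between the 2 densities was 0.0974 over the 19 autosomes, given as a description of points that share 1 library.

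Ribosomal RNA gene arrays, the core of the nucleolus, lie near the centromeres of chromosomes 12, 15, 16, 18 and 19 in several laboratory strains, and which of them carry the arrays in strain 129s2 is not given in the sources used here. Their zones lay on both sides of the rest. The ratio was 1.62 (1.35 to 1.93) for chromosome 15 and 1.499 (1.24 to 1.80) for chromosome 18. It was 0.780 (0.603 to 0.993) for chromosome 12, 0.791 (0.611 to 1.01) for chromosome 16 and 0.594 (0.424 to 0.810) for chromosome 19.

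Set among other windows of the same size, the zone was dense more often, and sparse less often, than the later windows pooled. Each autosome was divided into windows of 3 Mb from its first sequenced base, 794 in all, and a window was counted as dense or sparse when it had at least 1.5 times, or at most 1/1.5 of, the peaks per Mb of the rest of its autosome. The zone was dense on 6 of 19 autosomes (31.6%), where 12.4% of the 775 later windows were dense. It was sparse on 2 (10.5%), where 26.2% of the later windows were sparse. Of the 114 windows that followed within 21 Mb of the first sequenced base, 17.5% were dense and 6.14%, or 7 windows, were sparse. The 6 dense and 2 sparse zones of 19 are too few to set apart from these shares, and the 2 sparse zones also from the 26.2%. The zone held the most peaks of all windows on chromosome 8 (147 peaks in the zone) and on chromosome 13 (128, a number shared with a second window). In windows of 1 Mb, the first was dense on 4 autosomes (21.1%), where 18.5% of all later windows and 32.1% of those up to 21 Mb after the first sequenced base were dense. It was sparse on 1 (5.26%), where 31.1% of all later windows and 11.1% of those up to 21 Mb were sparse. Among its own 3 Mb windows, the zone ranked second on chromosomes 4, 9, 15 and 18, and last of 40 on chromosome 14.

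The higher density did not end at 6 Mb. Pooled over autosomes, the zone had 32.9 peaks per Mb and the next 3 Mb had 32.7 (31.3 to 34.3), a ratio of 1.01 (0.943 to 1.07). The 7 steps of 3 Mb up to 21 Mb after the first sequenced base had 31.5 to 35.1 per Mb, and the 12 steps from there to 57 Mb had 23.98 to 30.2. The zone was thus exceeded by 4 of the 18 later steps, the highest being the step from 15 to 18 Mb after that base with 35.1 (33.6 to 36.7). The 21 Mb limit was chosen after the profile was seen. The other chromosome end was not alike: the zone's density was 1.27 times (1.19 to 1.36) the 25.9 per Mb (24.6 to 27.3) of the last 3 Mb before the last peak of each autosome. At the edge itself, 52 peaks had midpoints in the last 100 kb below 6 Mb, with a median width of 910 bp and a median score of 129, and 57 lay in the first 100 kb above it, with a median width of 962 bp and a median score of 144. No peak spanned the 6 Mb position.

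**Figure D2:**
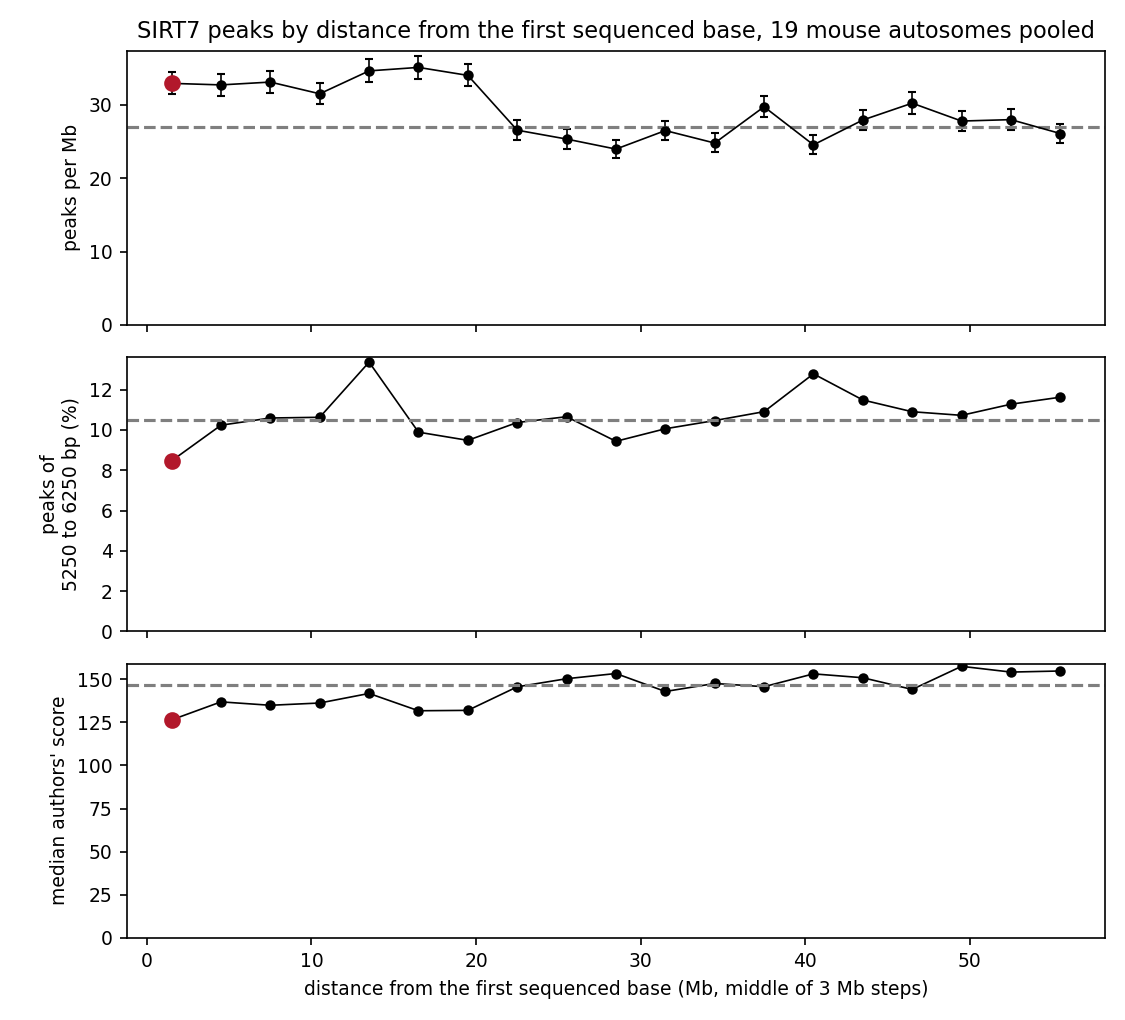
SIRT7 peaks per Mb with 95% Poisson intervals (top), percent of peaks that were 5250 to 6250 bp wide (middle) and median authors' score (bottom) in steps of 3 Mb by distance from the first sequenced base (x axis), 19 autosomes pooled. The red point is the 3 Mb beside the centromere and the dashed line the rest of the autosomes. Density stays at 31.5 per Mb or more for 7 steps, while the width share and the score of the first step are the lowest of the 19.

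Inside the zone the first 150 kb, a length chosen after the profile in steps of 50 kb was seen, were dense in peaks, but not alone in that. This stretch held 133 peaks, or 46.7 per Mb (39.1 to 55.3), and the remaining 2.85 Mb held 1745, or 32.2 per Mb (30.7 to 33.8), a ratio of 1.45 (1.205 to 1.73). The first 150 kb were denser than the remainder of the zone on 15 of 19 autosomes and sparser on 4. Every autosome had a peak there, from 2 on chromosome 14 to 16 on chromosome 1. These peaks had a median score of 100.5 (87.6 to 113), against 128 (123 to 134) in the remainder, and a median width of 1180 bp (956 to 1510) against 959 bp (911 to 1012). A second stretch of the same length, from 0.7 to 0.85 Mb after the first sequenced base, held 132 peaks, or 46.3 per Mb (38.8 to 54.9). In steps of 50 kb, the first held 49 peaks and the step from 0.8 to 0.85 Mb held 54, the most of the 60 steps. The steps beyond 150 kb ran from 21.1 to 56.8 peaks per Mb, each on few peaks. In steps of 0.5 Mb, the first 150 kb included, the zone had 30.4 to 34.5 peaks per Mb.

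The first peak of an autosome lay within 1 kb of the first sequenced base on 6 autosomes and within 10 kb on 11. The nearest were on chromosome 5 from 3000003 to 3001213 (score 75.3), on chromosome 4 from 3000044 to 3002391 (score 122) and on chromosome 7 from 3000138 to 3000917 (score 57.03). The farthest first peak, on chromosome 9, began 79345 bp after that base, at 3079346. It ended at 3084002, was 4657 bp wide and had a score of 382.

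**Figure D3:**
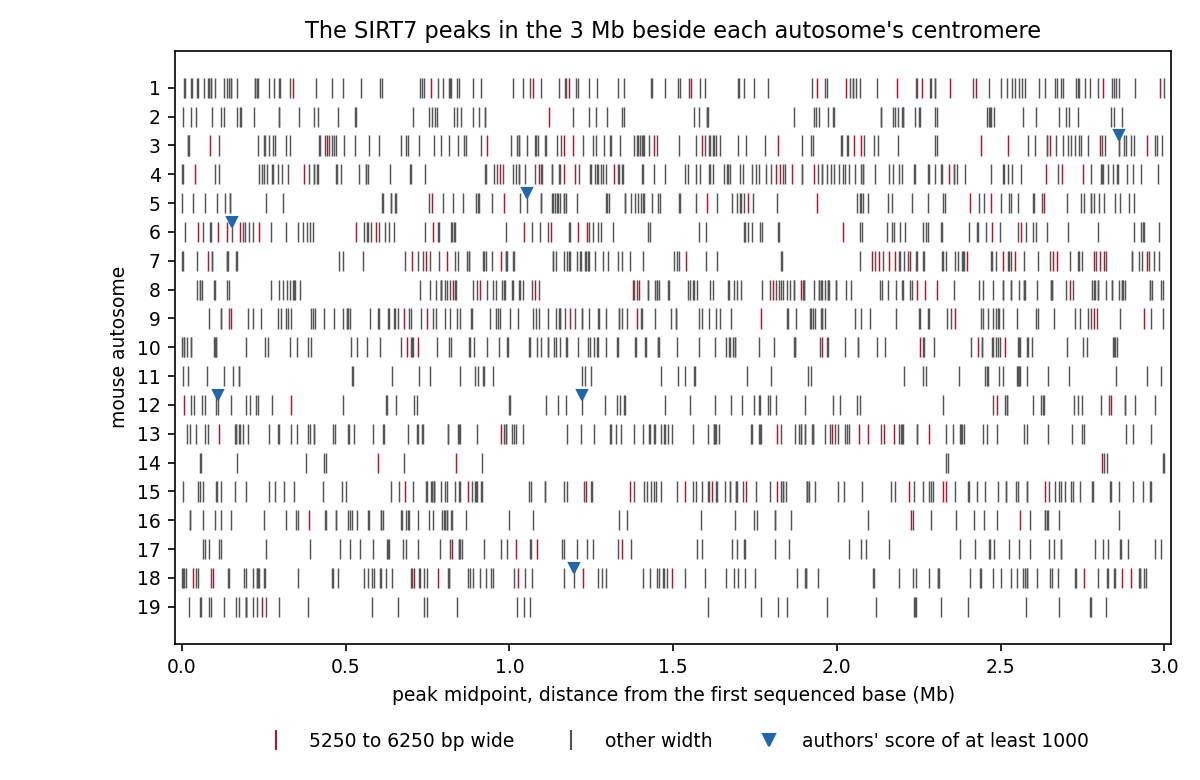
Midpoints of the 1878 zone peaks (vertical ticks) on each mouse autosome (rows) by distance from the first sequenced base in Mb (x axis). Red ticks are the 159 peaks 5250 to 6250 bp wide, grey ticks the others, and blue triangles mark the 6 peaks with an authors' score of at least 1000. Chromosome 14, with 17 ticks, is the emptiest row and holds the longest stretch without a tick.

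The map of the zone peaks also shows how uneven single autosomes were. Over the 114 steps of 0.5 Mb, the number of peaks ran from 0 to 38 around a median of 16.5. The fullest step, with 38, was the fourth of chromosome 8. The 2 empty steps, the third and the fourth, were both on chromosome 14, where the longest peak-free stretch of the zone ran for 1414760 bp from 3918867 to 5333626. The next longest stretches were 543409 bp on chromosome 19 from 4062989 to 4606397, and 466663 bp on chromosome 14 from 5341675 to 5808337. On chromosome 19 the first 0.5 Mb held 17 of the 41 zone peaks. SIRT7 may still be present where no peak was called.

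A full-length mouse L1 element is several kilobases long, and the fibroblast list has a group of peaks of 5250 to 6250 bp, a width range set from earlier results of this list. No repeat annotation of mm9 was used here, so these peaks are described by width alone. They made up 159 of the zone's peaks, or 8.47% (7.29 to 9.81), and 6659 of the peaks in the rest, or 10.5% (10.2 to 10.7). The zone's share was the lowest of the 19 steps of 3 Mb, the other 18 of which ran from 9.44% to 13.4%. Its interval held that 9.44%, so the lowest place is not set apart by counting error. It was not lower than at the other chromosome end, where the last 3 Mb had 8.12% (6.83 to 9.62). Counted per Mb, peaks of this size were about as frequent in the zone (2.79 per Mb) as in the rest (2.82 per Mb), with a ratio of 0.988 (0.839 to 1.16). Peaks of all other widths had 30.2 per Mb in the zone and 24.1 per Mb in the rest, a ratio of 1.250 (1.19 to 1.31). The higher number of peaks thus lay in other widths, although this interval for the L1-sized class reaches 1.16.

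The other width classes show where the excess over the rest was. Peaks of 500 to 1000 bp had a density ratio of 1.26 (1.17 to 1.35), those of 1000 to 2000 bp had 1.28 (1.16 to 1.404) and those of 2000 to 4250 bp had 1.33 (1.17 to 1.51). Below 500 bp the ratio was 1.06 (0.891 to 1.26), and at 6250 bp or wider it was 1.01 (0.689 to 1.43). The next 3 Mb, of the same span, held 757 peaks of 500 to 1000 bp, where the zone held 825. At 1000 to 2000 bp it held 409 against 433 in the zone, and at 2000 to 4250 bp 261 against 251. The excess in these widths was thus largely shared by the next 3 Mb. In the zone as in the rest, the L1-sized class was sharply peaked. Of the zone's peaks, 75 were 5750 to 6000 bp wide and 56 were 6000 to 6250 bp wide, against 16 of 5500 to 5750 bp and 6 of 6250 to 6500 bp.

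The L1-sized share also differed between autosomes. It was lower in the zone than in the rest on 15 of 19 autosomes, a count that was not made for later windows. Chromosome 11 had no peak of this size among its 50 zone peaks, which allows a share of up to 6.00%, and its rest had 9.69%. Chromosome 2 had 1 among 76 zone peaks, and chromosome 19 had 1 among 41. Chromosomes 7 and 6 went the other way, with 20 of 121 (16.5%) in the zone against 9.73% in the rest, and 15 of 98 (15.3%) against 10.9%. Chromosome 14 had 3 of 17, the highest share, on few peaks. The widest zone peaks lay above this class, on chromosome 2 from 3759911 to 3767774 (7864 bp, score 87.3), on chromosome 14 from 3374414 to 3381882 (7469 bp, score 145) and on chromosome 2 from 5475282 to 5482724 (7443 bp, score 119).

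**Figure D4:**
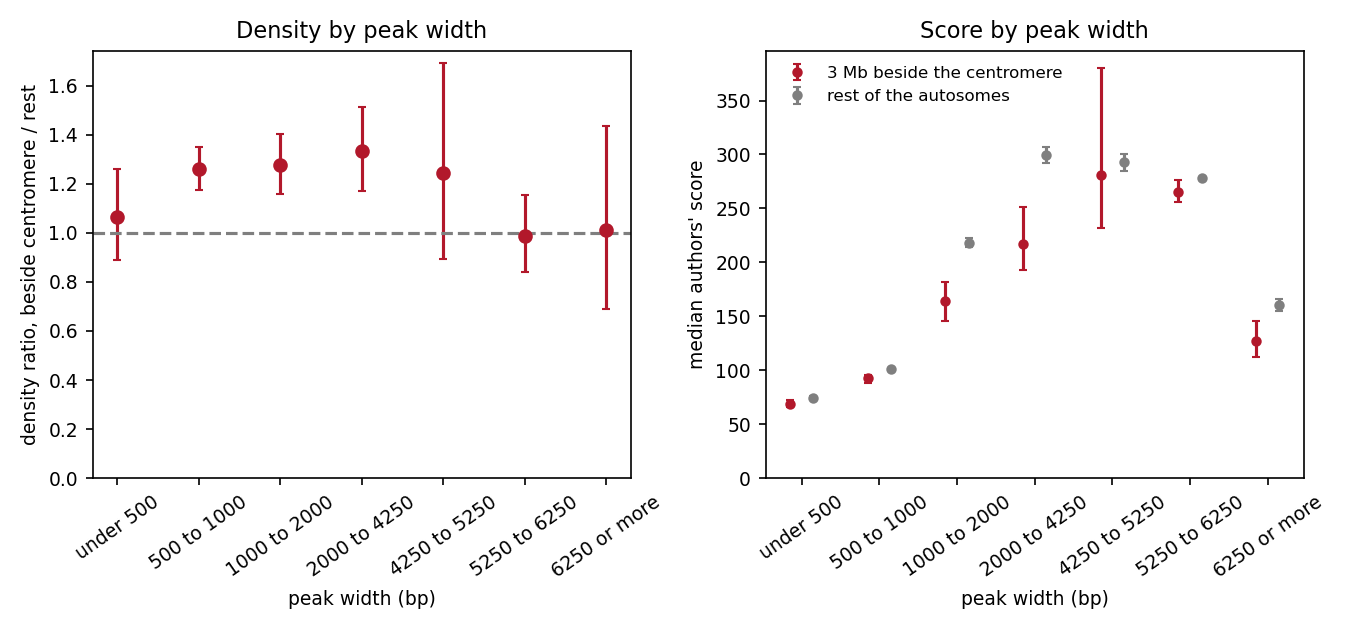
By peak width in bp (x axis), the ratio of peak density in the 3 Mb beside the centromere to the rest of the autosomes (left, 95% exact intervals, dashed line at 1) and the median authors' score (right) in the zone (red) and the rest (grey) with 95% order-statistic intervals. The ratio is highest at 2000 to 4250 bp and near 1 at 5250 to 6250 bp, and zone scores lie furthest below those of the rest at 1000 to 4250 bp.

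The authors' score, which rises as the caller's p-value falls, was lower in the zone. Its median was 126 (120 to 131) in the zone, against 147 (145 to 148) in the rest and 137 (131 to 142) in the next 3 Mb. This was the lowest median of the 19 steps of 3 Mb, the other 18 of which had 132 to 158. The zone's median score was below that of all peaks of the same autosome on 17 of 19 autosomes, the exceptions being chromosomes 3 and 12, where 45.7% of later windows of 3 Mb were below it. For median width the same count was 9 of 19, where 54% of later windows were below.

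The zone exceeded the rest in peaks with scores under 200. Peaks with scores under 100 made up 39.6% (37.4 to 41.8) of the zone's peaks and 33.3% (33.0 to 33.7) of the rest, and per Mb they were 1.45 times (1.35 to 1.56) as frequent in the zone. Peaks with scores of 100 to 200 had 9.88 per Mb in the zone and 7.74 per Mb in the rest, a ratio of 1.28 (1.17 to 1.39). Peaks with scores of 200 to 400 had 7.61 per Mb in the zone and 7.59 per Mb in the rest, a ratio of 1.00 (0.910 to 1.10). Among the peaks in the upper 50% of scores of the whole list, the density ratio was 1.05 (0.978 to 1.13). Against the next 3 Mb, the zone's ratio was 1.12 (1.01 to 1.25) for scores under 100 and 1.02 (0.907 to 1.15) for scores of 100 to 200. Most of the excess of low scores over the rest was thus shared by the next 3 Mb. In each of the 7 width classes used here the zone's median score was below that of the rest. At 2000 to 4250 bp the median was 217 (193 to 251) in the zone and 300 (292 to 307) in the rest, and at 1000 to 2000 bp it was 164 (146 to 182) in the zone and 218 (214 to 222) in the rest. The next 3 Mb had 255 (220 to 301) at 2000 to 4250 bp and 178 (154 to 203) at 1000 to 2000 bp, with intervals that overlapped those of the zone. For the L1-sized peaks the medians were closer, with 265 (256 to 276) in the zone and 278 (277 to 279) in the rest. At 4250 to 5250 bp the interval of the zone's median, 281 (231 to 380), held the 293 (285 to 301) of the rest.

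Scores above a high cut of 1000 were also more frequent in the zone than in the rest, on few peaks. Scores of at least 1000 were given to 6 zone peaks, or 0.319% (0.147 to 0.695), and to 24 peaks of the rest, or 0.0378% (0.0254 to 0.0562). Per Mb this was a ratio of 10.3 (3.46 to 26.0), and the next 3 Mb had no such peak. The last 3 Mb before the last peak of each autosome had 2, and the ratio to them, 3.00 (0.536 to 30.4), had an interval that held 1. At a cut of 400 there was no excess over the rest, with a ratio of 0.912 (0.764 to 1.08). The 6 lay on 5 autosomes. The highest were on chromosome 5 from 4052147 to 4054573 (2427 bp wide, score 1928, seventh of the whole list) and on chromosome 12 from 3109667 to 3110226 (560 bp wide, score 1821, ninth). Next came chromosome 18 from 4195022 to 4199205 (4184 bp wide, score 1427) and chromosome 6 from 3150505 to 3151869 (1365 bp wide, score 1349). The last of the 6 were on chromosome 12 from 4219198 to 4221943 (2746 bp wide, score 1343) and on chromosome 3 from 5860271 to 5860730 (460 bp wide, score 1101).

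The 10 zone peaks with the highest scores had a median width of 1719 bp, and 0 of them were 5250 to 6250 bp wide. Among all zone peaks 8.47% were of that size, so 0 of 10 does not set the high peaks apart. The remaining 4 of the 10 lay on chromosomes 8, 6, 5 and 7 with scores of 865, 860, 842 and 719. Of the 10, 5 had no other peak within 10 kb. Among all zone peaks 67.1% had such a neighbour, and 10 peaks are too few to set apart from that share.

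Zone peaks lay closer together than those in the rest. The median gap between neighbouring peaks, measured from edge to edge, was 13804 bp in the zone (12557 to 15126) and 17919 bp in the rest (17689 to 18166). The middle 50% of gaps ran from 4774 to 33507 bp in the zone and from 6118 to 41671 bp in the rest. A neighbour within 10 kb was found for 67.1% (64.9 to 69.2) of zone peaks and 56.7% (56.3 to 57.1) of the rest. Gaps of 1 to 10 kb were more common, with 30.6% (28.5 to 32.7) of zone gaps and 24.6% (24.2 to 24.9) of those in the rest. Gaps over 100 kb were less common, with 4.95% (4.05 to 6.03) of zone gaps and 7.69% (7.49 to 7.90) of those in the rest. Gaps under 1 kb made up 11.7% (10.3 to 13.3) of zone gaps and 10.1% (9.88 to 10.3) of those in the rest. The shortest gaps of the zone were of 1 bp, on chromosomes 5, 15 and 19.

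Higher density by itself brings peaks closer together, and whether the closer spacing went beyond that was not tested. Taken relative to the mean length of sequence per peak, the median gap was 0.455 in the zone and 0.483 in the rest, with no interval made for either. In the last 3 Mb before the last peak of each autosome this value was 0.398, lower than in the zone. It was 0.485 in the next 3 Mb, whose median gap of 14819 bp (13811 to 15975) and share of 62.6% (60.4 to 64.8) with a near neighbour lay between zone and rest. By autosome, the zone's median gap was shorter than that of the rest on 13 of 19, and over all 19 it ran from 7905 bp on chromosome 8 to 76298 bp on chromosome 14. On chromosome 8, 85.0% of zone peaks had a neighbour within 10 kb, against 56.8% in its rest. On chromosomes 17 and 19 the zone's shares, 39.4% and 43.9%, were below the 55.7% and 51.3% of their rest.

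**Figure D5:**
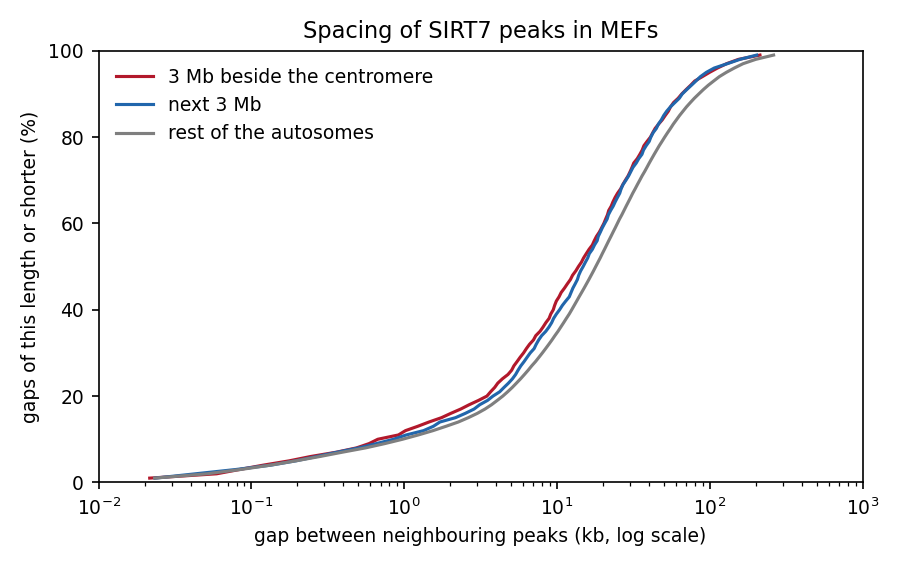
Cumulative percent of gaps (y axis) by the gap between neighbouring SIRT7 peaks in kb on a log scale (x axis) in the 3 Mb beside the centromere (red), the next 3 Mb (blue) and the rest of the autosomes (grey). The red curve lies left of the grey one above about 1 kb, with medians of 13804 and 17919 bp, and the blue curve lies close to the red.

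Runs of peaks less than 1 kb apart were short in the zone, with at most 4 peaks, and in the rest, with at most 5. They held 22.0% of the zone's peaks, against 19.3% of the rest. The 21 zone runs of at least 3 peaks held 3.46% of the zone's peaks, and such runs held 2.52% of the rest. The longest zone runs, of 4 peaks each, lay on chromosome 18 from 3227653 to 3234618 and on chromosome 8 from 5653860 to 5657859. In the run on chromosome 18, peaks covered 89.4% of 6966 bp. Neighbouring pairs whose widths and gap recur exactly elsewhere in the list held 112 peaks, or 0.154% of it, and 0 zone peaks. At so low a share, a count of 0 does not set the zone apart.

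The X chromosome, whose first peak also lay just after 3 Mb, was not among the chromosomes chosen. Its stretch up to 6 Mb had 76 peaks, 25.3 per Mb (19.96 to 31.7), against 43.4 per Mb (42.4 to 44.5) in the rest of X, a ratio of 0.583 (0.459 to 0.731). On this chromosome the stretch beside the centromere was thus sparser than the rest, as on chromosomes 12, 14 and 19.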

How the data were processed

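Wild-type MEFs were crosslinked and SIRT7 ChIP was made from nuclear extracts, per the labels' protocols. Per the submitters' processing notes, peaks came from MACS 1.4.2 on mm9, and Trimmomatic 0.36, Bowtie and SAMtools 0.1.19 are also named there. The control, the treatment of reads with several matches and any pooling of replicates are not stated in them. The deposited list gives each peak's position and a score from the authors' caller. On the MACS scale it is the p-value's negative log10 times 10, and no peak was under 50. The score was used only within the list.

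Densities carry exact Poisson intervals, ratios exact conditional intervals, medians order-statistic intervals and shares Wilson intervals, all at 95%. A share of 0 carries the limit of 3 counts. The rest of an autosome runs from 6 Mb to its last peak, since chromosome lengths of mm9 were not used here. Positions count from 1. Peaks were named by rule: the 10 highest scores, the 3 widest, the first peaks of autosomes, the shortest and longest gaps and the 3 densest and 3 sparsest autosomes. The longest runs were added after their values were seen. The zone, the width class and the lists were chosen with earlier results of these data known. The calculations of the density ratio and the median width were tested on simulated lists of independently placed peaks. The other measures, and clustered peaks, were not tested in this way. Alternatives changed the score threshold, merging, zone length, the stretch compared with, and left out each autosome. Intervals came from scipy 1.17.1 and tables from pandas 2.3.3, under Python 3.11.15. No genome or gene annotation of mm9 was used here, so no sequence or gene is given.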

Additional observations from a re-analysis of the deposited data

How the results depend on the processing

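Values are ratios of the zone to the rest, and the cause of each change was not tested. With only the upper 50% of scores, the ratio was 1.05 for density and 1.03 for covered share. It was 0.968 for the median gap and 0.944 for the score. The share with a near neighbour turned to 0.969 (0.865 to 1.08), an interval that holds 1. With scores of at least 100 the ratios were 1.11 (density), 1.09 (covered share), 0.888 (gap) and 1.10 (near neighbours). Against 6 to 9 Mb, density was 1.01, gap 0.932, near neighbours 1.07 and score 0.924, and covered share turned to 0.920. Against the last 3 Mb, covered share was 1.27, gap 0.900, near neighbours 1.11 and score 0.909. The L1-sized share there turned to 1.04 (0.898 to 1.21), an interval that also holds 1. Merging peaks closer than 1 kb gave 1.23 for near neighbours, a limit of 20 kb gave 1.08, and a zone up to 9 Mb gave 1.22 for covered share. The median over autosomes was 1.32 for density and 0.886 for the gap. Leaving out each autosome in turn gave densities of 1.18 to 1.28, the highest without chromosome 14, and L1-sized shares of 0.752 to 0.836. Without chromosomes 14 and 19, a setting chosen after the data were seen, density was 1.32 and covered share 1.249. In windows of 1 Mb, 1 autosome began with a sparse window, against 2 at 3 Mb. The first 0.25 Mb had 40.2 peaks per Mb, the first 0.5 Mb 33.7. No paired analysis was possible because the group had 1 peak list, although the labels number replicates 1 and 2. Unknown depth limits every number of peaks.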
